A study of Zea mays with 18 samples.

Results

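Kernels of the maize inbred line JI63 were compared between 24 and 35 days after pollination (DAP 24 and DAP 35). The comparison takes the 3 JI63 libraries of DAP 35 against the 3 of DAP 24, which are 6 of the 18 libraries of the series, over the loci of the expression table and without its separate intron entries. JI63 and DAN3130 are inbred lines of the NSS subpopulation, and the series asks which genes accompany folate accumulation in kernels on DAP 24, on DAP 35 and at maturity. All 6 libraries are RNA-seq of fresh whole kernels of unmodified JI63 plants, with no treatment, and the 6 DAN3130 libraries of the same days serve as the comparison line. The study collected 3 biological replicates and pooled total RNA. How that pooling relates to the 3 libraries is not stated, so the p-values measure only the spread between these libraries, which may be technical. Replicates carry library codes. Those of DAP 24 are 22, 24 and 25 and those of DAP 35 are 26, 27 and 29, and values are given in that order throughout.

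A maize kernel at these stages is filling. The starchy endosperm deposits starch and the zein storage proteins, fed by sucrose that enters through the basal transfer layer, while the embryo stores oil and globulins and then acquires tolerance of drying under abscisic acid. Folate is made from a pteridine and from p-aminobenzoate, joined and glutamylated, and it carries the C1 groups used to make methionine, serine, glycine and nucleotides.

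Depth differed between the 6 libraries. The DAP 24 libraries counted 43675709, 15496827 and 53361494 reads in loci, and those of DAP 35 counted 133264978, 35571187 and 99210224. Replicate 27 stands apart: its 100 highest loci took 33.5% of counts, against 19.9% to 24.9% in the other 5 libraries, and 4759 loci were at least 2-fold above the mean log level of replicates 26 and 29. Pearson's r between log2 values, across loci, was 0.9608 to 0.9633 within DAP 24 and 0.9355 to 0.9788 within DAP 35. Both embryo and endosperm markers were present on each day. Summed normalized counts of the 19 matched embryo loci, 11 of them tested, were 448307 to 467231 on DAP 24. On DAP 35 they were 646974 to 1699882, with the highest sum in replicate 27. Those of the 23 matched green tissue loci, 14 of them tested, were 642 to 823 and 411 to 850.4. In bulk kernels, fewer cells of a type and less RNA per cell cannot be told apart.

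Of 27207 tested loci (mean above 10 normalized counts over the 12 immature libraries), 7532 passed an adjusted p of 0.05 in limma with Benjamini-Hochberg adjustment, which is 27.7%. Of these, 3276 rose (12.0%) and 4256 fell (15.6%) from DAP 24 to DAP 35. Counts over gene lists below are to be read beside these shares. The median log2 change over all tested loci was 0.00, and over called loci its median size was 1.09. Changes of at least 8-fold were called for 275 rising and 346 falling loci. At the limits of the study for a DEG, a log2 change of at least 1 in size with an unadjusted p under 0.05, there were 5379 loci (19.8%), 2572 of them higher and 2807 lower. The 3 libraries of one day lay above the 3 of the other at 5423 loci in the direction of a rise (19.9%) and at 6187 in that of a fall (22.7%). Without replicate 27, 7281 loci were called, 6193 of them also called in the same direction with it.

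The 12 largest falls included genes of the endosperm that feeds and surrounds the embryo, a zein and wall-loosening genes, and also knotted1 induced1, WRKY-transcription factor 53, PIN-formed protein11 and sucrose phosphate synthase1. The 12 largest rises included genes of terpenoid and benzoxazinoid defence and stress-induced protein1. The plot of the 24 leading named genes gives every library.

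**Figure D1:**
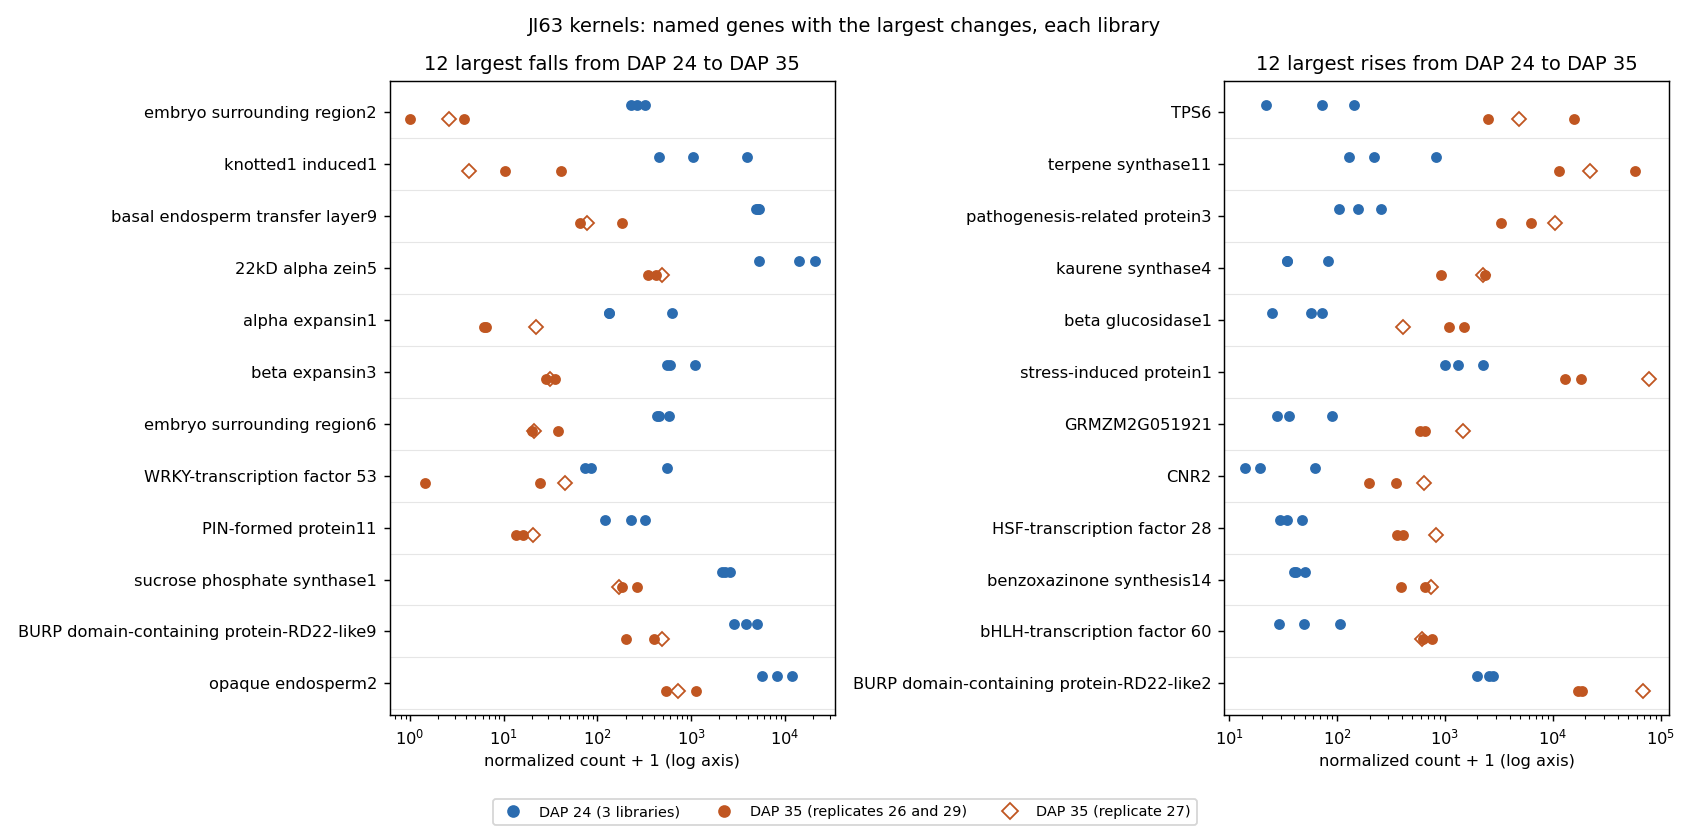
Normalized count plus 1 (log axis) of the 12 named genes with the largest falls (left) and the 12 with the largest rises (right), where each point is a library. On neither side do the 3 DAP 24 libraries of a gene overlap its 3 DAP 35 libraries, which the rule for naming required, and replicate 27 is drawn as an open diamond.

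Genes of the basal transfer layer and of the embryo surrounding region were lower on DAP 35. Of 8 tested genes of the transfer layer list none rose and 6 fell, with a median log2 change of -2.45. Without replicate 27 the number that fell was 4. The summed counts of the 11 matched loci went from 5779 to 7181 on DAP 24 to 148 to 406 on DAP 35. Basal endosperm transfer layer9 (Zm00001d041822, chromosome 3, 139335162 to 139335859 on the B73 AGPv4 build), which encodes a small secreted protein of that layer, held 5299, 4920.0 and 5183 normalized counts on DAP 24 and 182, 77.3 and 63.7 on DAP 35. The days were far apart, and the log2 change was -5.72 ± 0.31 (SE, adjusted p = 1.64e-06), a 52.6-fold fall to a level that reached 0 in all 3 mature libraries. Miniature seed1, the cell wall invertase that splits incoming sucrose, held 395, 1049 and 1806 and then 154, 226 and 39.5. Its fall of 3.01 ± 0.59 on the log2 scale (adjusted p = 0.00267) came from separate groups with a wide spread on each day, and was 2.28 without replicate 29. Myb related protein1, a regulator of transfer layer genes, was low throughout, with 19.4, 30.5 and 66.5 and then 4.16, 1.63 and 1.37 normalized counts (log2 change -3.47 ± 0.54, adjusted p = 0.000631).

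Both tested genes of the embryo surrounding region, which encode small peptides of the endosperm next to the embryo, fell. Embryo surrounding region2 (Zm00001d027819, chromosome 1, 14448014 to 14448412) held 225, 264 and 320.2 normalized counts on DAP 24 and 0, 1.63 and 2.74 on DAP 35. It was almost undetected on the later day, with a log2 change of -6.97 ± 0.54 (adjusted p = 8.33e-06) that depends on the pseudocount of 1 at such levels. Embryo surrounding region6 went from 454, 434 and 573 to 37.1, 20.3 and 19.2, a log2 change of -4.25 ± 0.40 (adjusted p = 2.82e-05). Of the 6 tested aleurone genes, 1 fell and none rose, with a median of -0.22, while 2 fell with a median of -0.34 without replicate 27. The 1 that fell with all 6 libraries was supernumerary aleurone1, a regulator of aleurone cell layers, at 3555, 3276 and 3654 and then 2171, 2469 and 1701 (log2 change -0.74 ± 0.13, adjusted p = 0.00147).

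Most storage protein genes tested were lower on DAP 35, while globulin1, an embryo storage protein, was higher. In the list of zeins and other storage proteins, 6 of 10 tested genes fell and 1 rose, with a median of -2.32, with the same counts without replicate 27. The summed counts of its 16 matched loci overlapped between days, at 1023133 to 1655702 on DAP 24 and 1064087 to 2612406 on DAP 35. Zein protein, 15kDa15, a beta-type zein, had the highest level per kb of its longest transcript on DAP 24 among named genes, 621554 normalized counts per kb, and 59554 on DAP 35. Its libraries held 234942, 454589 and 649297 and then 42399, 61629 and 24251 normalized counts. The days were separate, with a 10.3-fold fall (log2 change -3.37 ± 0.42, adjusted p = 0.000157). 22kD alpha zein5 (Zm00001d048806, chromosome 4, 5835517 to 5836317) fell more, from 5315, 14130.1 and 20681 to 342, 487 and 416 (log2 change -4.81 ± 0.37, adjusted p = 8.33e-06). Zeins of a class are near-identical, so how their reads were divided between copies is uncertain, and 6 of the 12 matched starchy endosperm loci had no count in any of the 6 libraries.

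Opaque endosperm2 (Zm00001d018971, chromosome 7, 11075377 to 11078280), the bZIP activator of zein genes, held 5696, 8212 and 11949.8 normalized counts and then 1119, 725 and 538. That is a 10.8-fold fall with no overlap between the days (log2 change -3.44 ± 0.33, adjusted p = 3.11e-05). Prolamin-box binding factor1, the Dof protein that acts with it on zein promoters, held 2044, 2017 and 2213 and then 2178, 1416 and 2198, overlapping on the 2 days (log2 change -0.14 ± 0.17, adjusted p = 0.587). Legumin1 and globulin3, further storage proteins, had log2 changes of -2.84 ± 0.33 and -2.90 ± 0.32 (adjusted p = 9.96e-05 and 7.54e-05), calls that ended when the mature libraries shared the fit. Globulin1 went the other way, from 137456, 155124 and 118618 to 421298, 1077364 and 381807. Replicate 27 was the highest of the DAP 35 libraries, and all 3 were above DAP 24 (log2 change 2.03 ± 0.36, adjusted p = 0.00154). Per kb, globulin2 had the highest level of any named gene on DAP 35, 484652 against 209278 on DAP 24, but its log2 change of 1.08 ± 0.39 did not pass (adjusted p = 0.0575).

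Starch synthesis genes were mostly lower on DAP 35. Of 24 tested, 14 fell and 4 rose, with a median log2 change of -1.44. The summed counts of the 27 matched loci went from 438866 to 580049 on DAP 24 to 133299 to 180298 on DAP 35. Shrunken2 (Zm00001d044129, chromosome 3, 219979958 to 219991608), the large subunit of endosperm ADP-glucose pyrophosphorylase, held 70463, 82531 and 77793 normalized counts and then 22422, 14702 and 17531. The replicates of a day lay close together, and the fall was 4.28-fold (log2 change -2.10 ± 0.20, adjusted p = 2.73e-05). Brittle endosperm2, the small subunit of the same enzyme, went from 93606, 93904 and 87140.0 to 24357, 11124 and 14474, a 5.80-fold fall (log2 change -2.54 ± 0.30, adjusted p = 0.000108). The falls extended along the pathway. Brittle endosperm1, which carries ADP-glucose into the amyloplast, changed by -2.06 ± 0.30 on the log2 scale, waxy1, which makes amylose, by -2.56 ± 0.33, and amylose extender1, a branching enzyme, by -2.50 ± 0.24. Sugary2, a starch synthase, fell by 2.68 and the pullulanase-type starch debranching enzyme1 by 2.55 on the same scale.

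The 4 starch genes that rose included forms other than these. ADP glucose pyrophosphorylase large subunit leaf2 held 904, 800.2 and 608 normalized counts and then 2309, 1768 and 2415 (log2 change 1.49 ± 0.18, adjusted p = 0.000108). Starch phoshorylase2, spelled as in the file, held 6216, 6601 and 5138 and then 13232, 18262 and 13190.3, and isoamylase-type starch debranching enzyme3 rose by 1.07 ± 0.15 on the log2 scale. All 3 had separate days. Per library, the counts of sugary2 and brittle endosperm1 were also apart between days, but their calls ended when the mature libraries shared the fit.

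**Figure D2:**
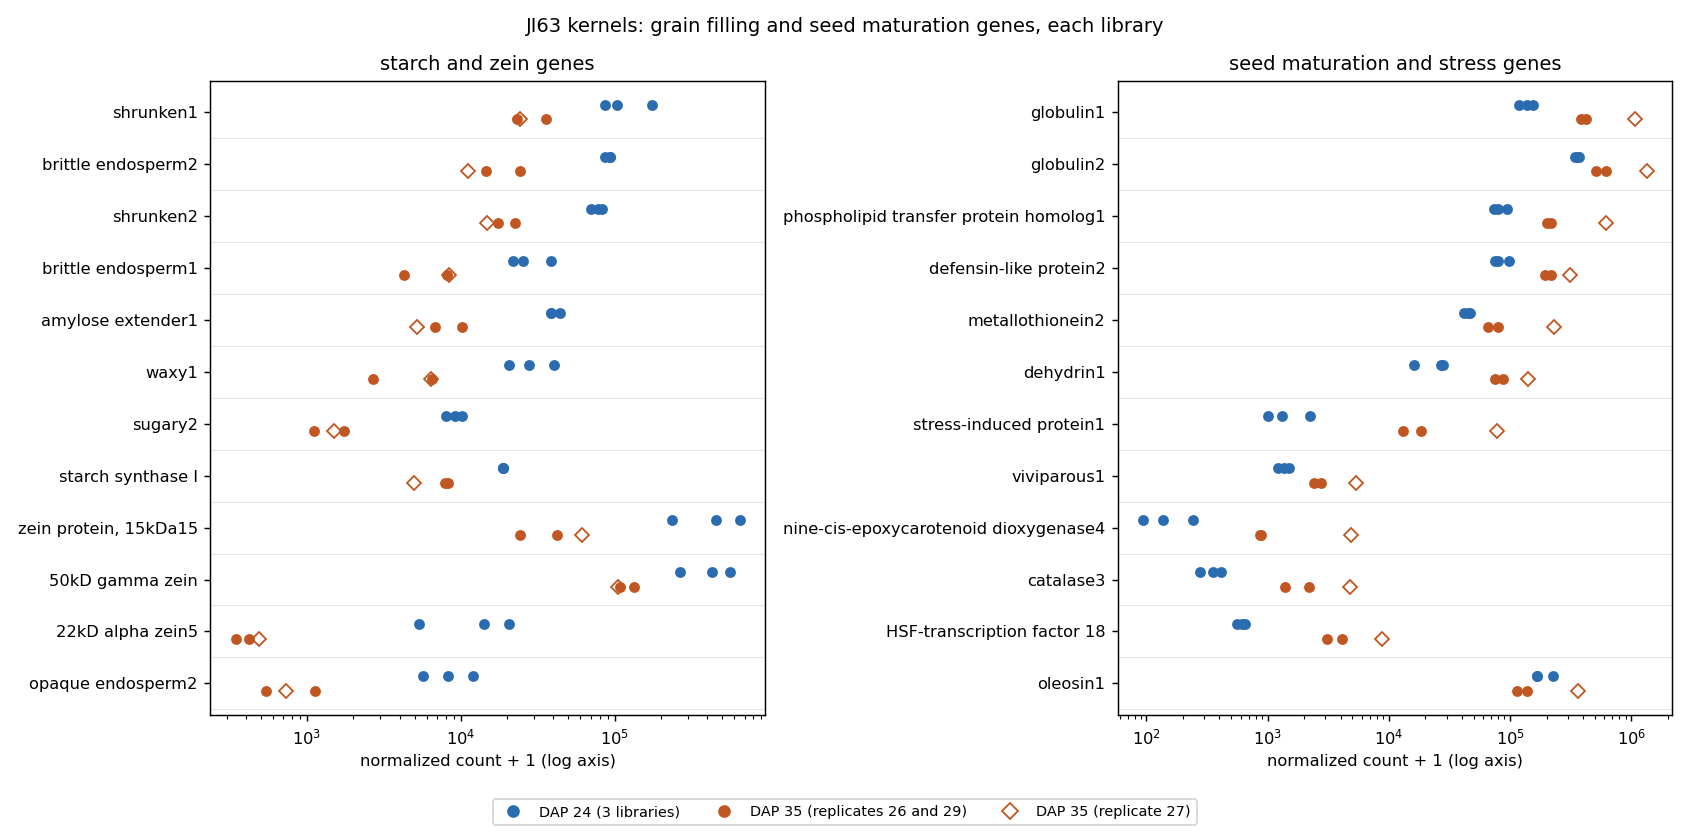
Normalized count plus 1 (log axis) in each of the 6 JI63 libraries, for starch and zein genes (left) and genes of seed maturation and stress (right). The genes drawn were chosen with their values known, and the starch genes that rose are not drawn. The starch and zein genes drawn were lower on DAP 35, with shrunken2 at 70463 to 82531 on DAP 24 and 14702 to 22422 on DAP 35. Replicate 27 (open diamond) is the highest DAP 35 library for globulin1 and dehydrin1.

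Genes that handle sucrose split in both directions. Of 46 tested genes for sucrose cleavage, synthesis and sugar transport, 8 rose and 8 fell, with a median of -0.04. Sucrose phosphate synthase1 (Zm00001d012036), which makes sucrose phosphate, held 2269, 2118 and 2566 normalized counts and then 264, 168 and 184. The replicates agreed closely on each day, and the fall was 11.4-fold (log2 change -3.51 ± 0.27, adjusted p = 6.83e-06). Shrunken1, the main endosperm sucrose synthase, fell from 86361, 103469 and 175074 to 36006, 24390.0 and 23089 (log2 change -2.09 ± 0.31, adjusted p = 0.000433), while sucrose synthase1 overlapped between days (-0.04 ± 0.19, adjusted p = 0.925). SWEET-type transporter genes, which let sugars leave cells, went both ways. Sugars will eventually be exported transporter4c held 3381, 4443 and 5882 and then 1215, 1146 and 586 (log2 change -2.25 ± 0.25). Transporter12a of the same family held 62.5, 65.9 and 85.7 and then 303, 274 and 341 (2.09 ± 0.29). Sucrose transporter1, a proton-coupled loader, held 127, 111 and 94.4 and then 439, 675 and 469.9 (log2 change 2.23 ± 0.22, adjusted p = 3.19e-05).

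In glycolysis and the TCA cycle, 14 of 45 tested genes fell and 7 rose, with a median of -0.15. Glyceraldehyde-3-phosphate dehydrogenase3 fell from 9716, 8701 and 12929 normalized counts to 1721, 1373 and 1471 (log2 change -2.76 ± 0.28, adjusted p = 4.22e-05), a call that ended when the mature libraries shared the fit. Of 9 tested hexokinase genes, 4 fell and 1 rose. Hexokinase1 changed by -1.70 ± 0.20 and hexokinase3 by 0.81 ± 0.13 on the log2 scale. Enolase1, which makes phosphoenolpyruvate, fell from 29323, 30058 and 33411 to 18033, 12130.3 and 15262 (log2 change -1.05 ± 0.21, adjusted p = 0.00335).

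Pyruvate metabolism had 7 rises and 7 falls among 34 tested genes, against 6 and 11 without replicate 27 and 4 and 4 with the mature libraries in the fit. Pyruvate, orthophosphate dikinase2, which interconverts pyruvate and phosphoenolpyruvate, held 22277, 28742 and 65944 normalized counts and then 7552, 7751 and 3761 (log2 change -2.53 ± 0.38, adjusted p = 0.000535). Replicate 25 was the highest by far on DAP 24, and the days did not overlap. The related dikinase1 fell by 1.71 and pyruvate decarboxylase2, the first enzyme of ethanol fermentation, by 1.51 on the log2 scale. Malic enzyme4 rose from 4118, 4216 and 3459 to 10606, 11493 and 12908 (log2 change 1.57 ± 0.15, adjusted p = 2.98e-05). All 3 tested phosphoenolpyruvate carboxylase genes, which make oxaloacetate, rose, with a median of 0.82. Phosphoenolpyruvate carboxylase4 held 1107, 847 and 943 and then 2145, 1851 and 2485 (log2 change 1.16 ± 0.14, adjusted p = 0.000111).

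The largest rises of named genes were in terpene synthases. TPS6 (Zm00001d024207, chromosome 10, 56446155 to 56449468) held 142, 20.9 and 71.3 normalized counts on DAP 24 and 2533, 4882 and 15784 on DAP 35. Its neighbour terpene synthase11 (Zm00001d024210, chromosome 10, 56611720 to 56614911) held 835, 129 and 219 and then 11434, 22090.3 and 58268. In both, replicate 29 was the highest and replicate 26 the lowest on DAP 35, and the days were far apart. The log2 changes were 6.57 ± 0.96 for TPS6 (adjusted p = 0.00042; 5.83 without replicate 24) and 6.41 ± 1.0 for terpene synthase11 (adjusted p = 0.000667; 7.18 without replicate 22). Maize terpene synthases 6 and 11 make sesquiterpenes of pathogen and herbivore defence and are near-identical, so the split of reads between the 2 loci is uncertain. Kaurene synthase4, a diterpene synthase, held 81.9, 33.7 and 33.2 and then 911, 2241 and 2346 (log2 change 5.19 ± 0.64, adjusted p = 0.00013).

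Of the 11 tested benzoxazinone synthesis genes, which make defence compounds of young grasses, 3 rose and none fell, with a median of 0.88. Benzoxazinone synthesis14, which acts late in the pathway, held 39.3, 40.2 and 49.6 normalized counts and then 392, 741 and 653, a 13.1-fold rise (log2 change 3.72 ± 0.55, adjusted p = 0.000452). Beta glucosidase1, which frees the toxic form from its glucoside, held 72.2, 56.2 and 24.1 and then 1097, 406 and 1513 (log2 change 4.22 ± 0.47, adjusted p = 7.12e-05). Here replicate 27 was the lowest DAP 35 library. In a list of terpene and benzoxazinoid genes that was drawn up after values were seen, 8 of 20 tested genes rose and 1 fell, with a median of 1.04. The gene that fell was anther ear1, which acts in gibberellin synthesis, from 1192, 1506 and 1311 to 277, 214 and 202 (log2 change -2.54 ± 0.25, adjusted p = 3.11e-05), a call lost once the mature libraries entered the fit.

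Other defence genes divided, with 6 rises and 5 falls among 23 tested and a median of 0.02. Pathogenesis-related protein3 held 255, 103 and 156 normalized counts and then 3314, 10571 and 6334, a 37.6-fold rise (log2 change 5.23 ± 0.61, adjusted p = 9.27e-05). Wound induced protein1 and pathogenesis-related protein6 rose by 3.31 ± 0.57 and 2.81 ± 0.65 on the log2 scale, of which the first lost its call with the mature libraries in the fit. The abundant defensin-like protein2, a small antimicrobial peptide by its name, held 75576, 98619.8 and 79590.0 and then 193731, 311524 and 216350.3 (log2 change 1.49 ± 0.25, adjusted p = 0.000907). Ribosome-inactivating protein1, an endosperm protein that is a target of opaque endosperm2, fell from 72576, 123896 and 109293 to 17172, 27609 and 19762 (log2 change -2.24 ± 0.33, adjusted p = 0.000495). Cystatin3, a protease inhibitor, fell by the same 2.24 ± 0.39.

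Genes of seed maturation rose in part, and the medians of these lists moved with replicate 27. Of 29 tested LEA, dehydrin and abscisic acid genes 7 rose and 2 fell, with a median of 0.53, against 7, 3 and 0.09 without replicate 27. Dehydrin1, a protein that protects cells during drying, held 27140.4, 27863 and 16233 normalized counts and then 75387, 141102 and 86678 (log2 change 2.08 ± 0.30, adjusted p = 0.000402). Its rise went on in the mature libraries, which held 2252376, 1506757 and 2560591. Nine-cis-epoxycarotenoid dioxygenase4, of the family that commits carotenoids to abscisic acid, held 239, 93.2 and 136 and then 886, 4888 and 869. Replicate 27 was over 5 times each other DAP 35 library, and the log2 change was 3.42 ± 0.58 with it (adjusted p = 0.00107) and 2.59 without it. Viviparous1, the transcription factor through which abscisic acid acts in seeds, held 1366, 1216 and 1488 and then 2728, 5368 and 2420.2 (log2 change 1.28 ± 0.25, adjusted p = 0.00274). In the opposite direction abscisic acid 8'-hydroxylase3, of the enzymes that degrade the hormone, fell from 6719, 7867 and 8004 to 2369.9, 2757 and 2557 (log2 change -1.55 ± 0.21, adjusted p = 0.000221), a call that ended when the mature libraries shared the fit.

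Embryo genes did not move as a block. Embryo specific protein5 rose from 8503, 6445 and 6546 normalized counts to 18132, 29554 and 16595 (log2 change 1.54 ± 0.20, adjusted p = 0.00018). Oleosin1, the coat protein of oil bodies, overlapped between days, at 166103, 166348 and 227783 and then 137635, 367020.1 and 113458 (-0.05 ± 0.40, adjusted p = 0.968). WUSCHEL-related homeobox 2a`, as the file writes it, fell from 214, 223 and 324 to 91.4, 74.9 and 30.8 (log2 change -2.05 ± 0.37, adjusted p = 0.00168), again only where the mature libraries were left out of the fit. Over the whole embryo list, 2 of 11 tested genes rose and 1 fell, with a median of 0.21.

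Among protective genes, 8 of 24 tested glutathione transferases rose and 1 fell, with a median of 0.88 (0.66 without replicate 27). Glutathione transferase39 held 255, 260.3 and 289 normalized counts and then 747, 1924 and 1501 (log2 change 2.27 ± 0.30, adjusted p = 0.000236), though the call ended when the mature libraries shared the fit. Catalase3, which breaks down hydrogen peroxide, rose from 273, 409.7 and 352 to 1381, 4788 and 2211 (log2 change 2.84 ± 0.42, adjusted p = 0.000454). Thioredoxin h homolog2, a disulfide reductase, fell from 10412, 9756 and 12872 to 5374, 6551 and 4442 (log2 change -1.02 ± 0.16, adjusted p = 0.000606). Of 13 tested heat shock and chaperone genes 4 rose and 1 fell, with a median of 0.04, against 3, 3 and -0.19 without replicate 27. The fall was heat shock protein18c, whose days overlapped, at 2348, 3849.9 and 4528 and then 678, 2724 and 527. Its call (-1.80 ± 0.51, adjusted p = 0.0212) ended in edgeR, in DESeq2 and without any 1 of the replicates 24, 25, 26 and 29, and its change was -2.53 without replicate 27. Of 22 tested genes of the HSF family, which regulates that response, 6 rose and 2 fell, with a median of 0.26, against 5, 3 and 0.06 without replicate 27. HSF-transcription factor 28 held 46.3, 28.9 and 33.7 and then 361, 832 and 406 (log2 change 3.76 ± 0.37, adjusted p = 3.44e-05), and HSF-transcription factor 18 rose by 2.99 ± 0.34. HSF-transcription factors 6 and 14 changed by -1.12 ± 0.26 and -0.70 ± 0.17, calls that ended when the mature libraries shared the fit.

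Several genes with the largest rises peaked in replicate 27. Stress-induced protein1 (Zm00001d021901) held 1313, 2232 and 1004 normalized counts and then 13046, 78480.1 and 18256. All DAP 35 libraries were above DAP 24, and the log2 change was 4.21 ± 0.62 (adjusted p = 0.000443) and 3.43 without replicate 27. BURP domain-containing protein-RD22-like2, of a plant family whose founding RD22 gene responds to drying, held 2546, 2807 and 2001 and then 17191, 68544 and 18679 (log2 change 3.53 ± 0.45, adjusted p = 0.000168; 2.88 without replicate 27). The related BURP domain-containing protein-RD22-like9 fell, from 2837, 3853 and 5083 to 402, 489.9 and 203 (log2 change -3.48 ± 0.33, adjusted p = 2.66e-05). In a list of metallothioneins and seed hydrophilic proteins drawn up after values were seen, 5 of 11 rose and none fell, with a median of 1.42 that was 0.71 without replicate 27.

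**Figure D3:**
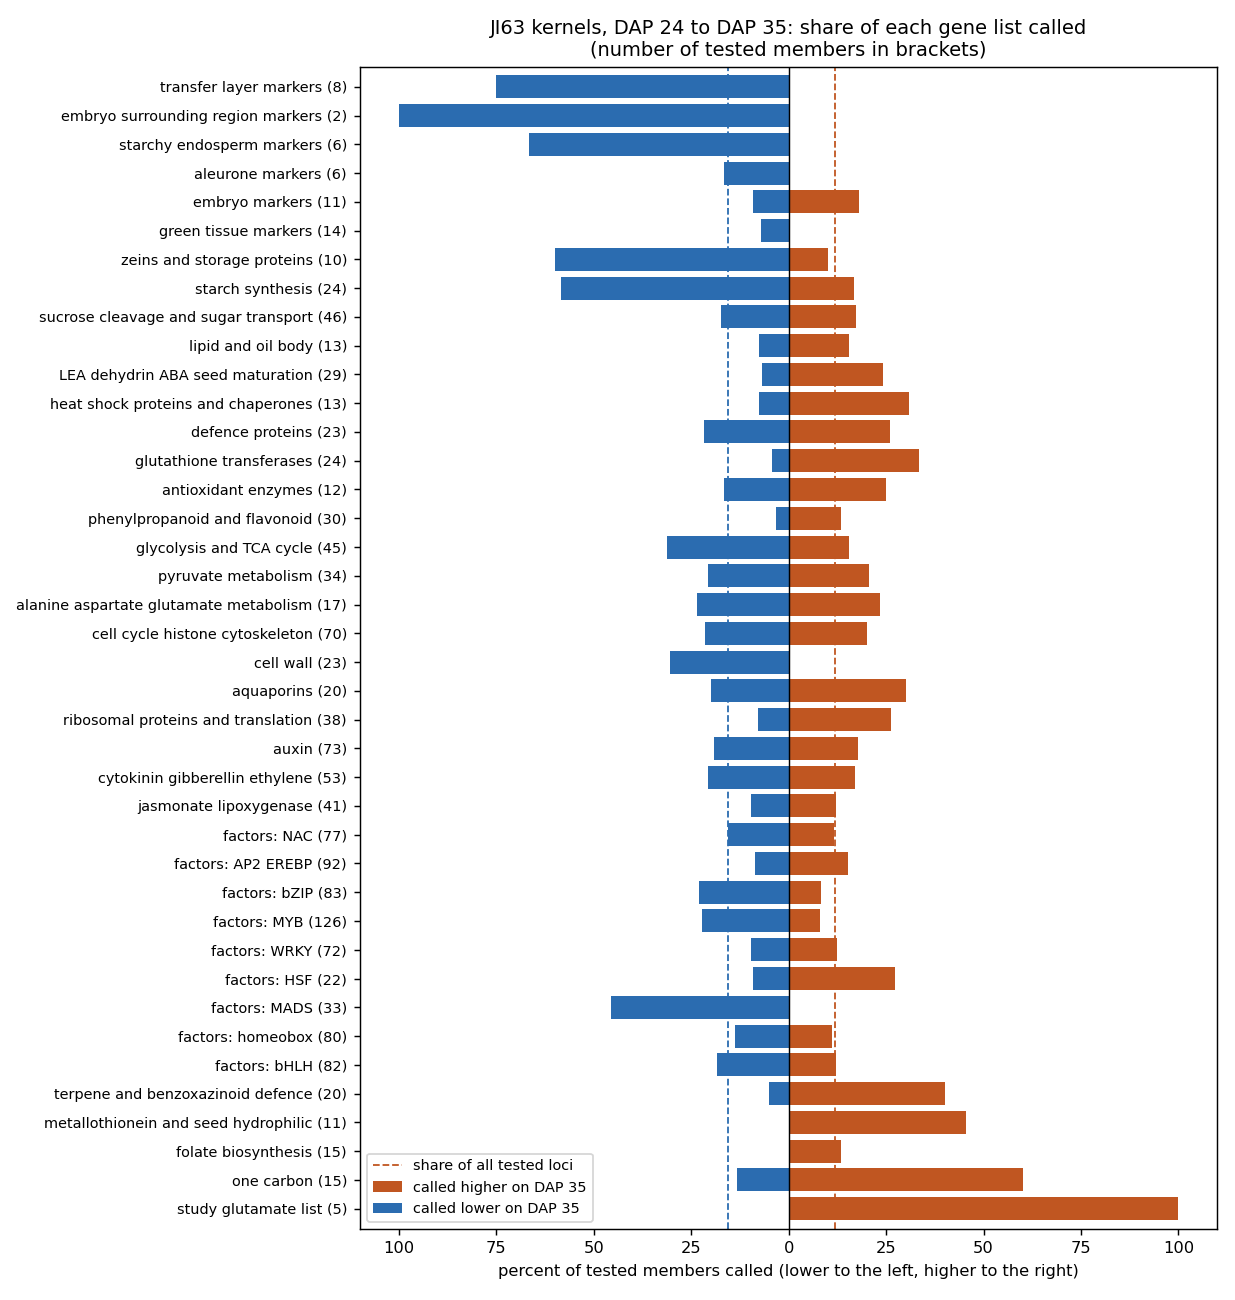
Share of the tested members of each gene list (horizontal axis, percent; number tested in brackets) called higher and called lower on DAP 35 in JI63. Starch synthesis shows 14 of 24 lower and MADS transcription factors 15 of 33 lower with none higher, beside 15.6% lower and 12.0% higher over all tested loci.

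Most folate genes were not called. Those that rose were GCHI-1 at the entry step and FPGS1 at the glutamylation step, where FPGS2, at a higher level, did not pass. Of 15 tested loci for folate synthesis, glutamylation and deglutamylation 2 rose and none fell, with a median of 0.31. Over all tested loci 12.0% rose, so in this fit the number of rises is near the general share. GCHI-1 (Zm00001d001959, chromosome 2, 3543770 to 3549932), GTP cyclohydrolase I, which opens the pteridine branch, held 1192, 1279 and 991 normalized counts and then 2815, 3057 and 2745. The days were well separated, with a 2.50-fold rise (log2 change 1.32 ± 0.14, adjusted p = 5.28e-05). FPGS1 (Zm00001d032529, chromosome 1, 229632719 to 229640210), a folylpolyglutamate synthase, which adds the glutamate tail, held 258, 244 and 216 and then 776, 594 and 753, a 2.94-fold rise (log2 change 1.55 ± 0.15, adjusted p = 2.69e-05). Both calls held under every alternative tried. FPGS2, the other copy, held 2987, 3074 and 2880.1 and then 2684, 1998 and 2734 (-0.28 ± 0.15, adjusted p = 0.187). On the p-aminobenzoate side, ADCS, aminodeoxychorismate synthase, held 528, 448 and 450.2 and then 673, 557 and 853, and ADCL1, the lyase after it, held 2029, 2094 and 1851 and then 2448, 2378 and 2957. In both, every DAP 35 library was above every DAP 24 library, but neither passed (0.53 ± 0.19, adjusted p = 0.0575, and 0.38 ± 0.14, adjusted p = 0.057). ADCS and ADCL1 did pass in edgeR, in DESeq2, with loci filtered at a mean above 100 and without replicate 27. In edgeR 4 of the 15 loci rose, and without replicate 27, 6 of the 15 rose. The locus of ADCL2 joins 2 genes, so its value belongs to neither alone.

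Of 15 tested genes of C1 metabolism 9 rose and 2 fell, with a median of 0.48 over all 15. MTHFR1, methylenetetrahydrofolate reductase, which makes 5-methyl-tetrahydrofolate, held 4559, 3683 and 3531 normalized counts and then 6369, 5763 and 7762 (log2 change 0.75 ± 0.14, adjusted p = 0.00188). MS1, a methionine synthase, went down from 165, 278 and 222 to 44.8, 73.2 and 45.7 (log2 change -2.01 ± 0.45, adjusted p = 0.0057), the largest change of the list. MS2, another methionine synthase, went up from 5780.1, 4105 and 5469 to 7691, 6432 and 8273 (log2 change 0.55 ± 0.15, adjusted p = 0.0164). DHC1, a methylenetetrahydrofolate dehydrogenase/cyclohydrolase, rose by 0.57 ± 0.13. The calls of MS1 and DHC1 ended only when the mature libraries shared the fit. Those of MS2, 5-FCL-1, DHC3, FTHS, SHMT7-1, SHMT7-2 and GCSP each ended without replicate 24, and for all but SHMT7-1 without other libraries too. With libraries set to equal upper quartiles 6 of the 15 rose and 2 fell, and with the mature libraries in the fit 2 rose and none fell.

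**Figure D4:**
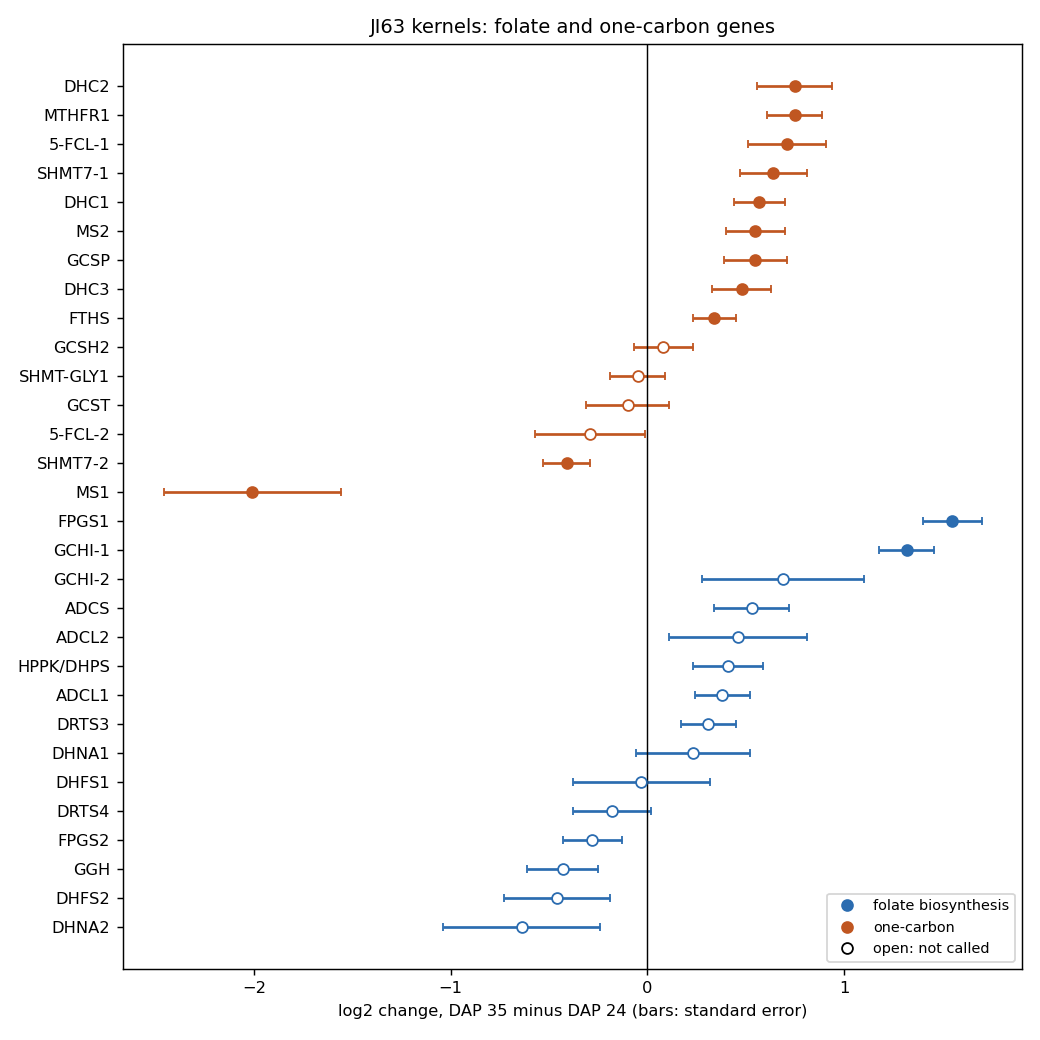
Log2 change from DAP 24 to DAP 35 in JI63 with its SE for 15 loci of folate biosynthesis and 15 of C1 metabolism, where open points were not called. GCHI-1 (1.32) and FPGS1 (1.55) lie highest and MS1 (-2.01) lowest.

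Glutamate metabolism, which supplies the folate tail and much of the nitrogen for storage proteins, showed rises and falls by isoform. Glutamine synthetase6 fell from 2911, 3779 and 4405 normalized counts to 546, 906 and 617 (log2 change -2.44 ± 0.38, adjusted p = 0.000687; not called with the mature libraries in the fit), and glutamine synthetase2 by 1.56 ± 0.33. Glutamine synthetase4 rose from 2639.7, 2325 and 2726 to 6403, 12957 and 6317 (log2 change 1.66 ± 0.28, adjusted p = 0.00101). Asparagine synthetase 2, which makes the transport amide asparagine, held 3801, 3495 and 3002 and then 10682, 16928 and 9662 (log2 change 1.82 ± 0.22, adjusted p = 0.000107). Glutamate decarboxylase, which forms GABA, held 4449, 4158 and 4528 and then 16079, 25716 and 14100.0 (log2 change 2.04 ± 0.18, adjusted p = 2.12e-05). All 5 genes of alanine, aspartate and glutamate metabolism that the study singled out rose, with a median of 1.82, but it chose them on these libraries, so their direction is not independent evidence. Without replicate 27, 4 of the 5 rose, and the call of asparagine synthetase 3 (2.03 ± 0.66, adjusted p = 0.037) ended without any 1 of the 6 libraries.

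Most minichromosome maintenance genes rose, while alpha tubulins and several expansins fell. Of 70 tested cell cycle, histone and cytoskeleton genes 14 rose and 15 fell, with a median of 0.13. The smaller families counted from this list were not planned as lists of their own. Minichromosome maintenance5 (Zm00001d018384), a subunit of the helicase that opens DNA for replication, held 152, 148 and 245 normalized counts and then 599, 433 and 519.7. Every DAP 35 library was above DAP 24 (log2 change 1.53 ± 0.28, adjusted p = 0.00189). Of the 6 tested minichromosome maintenance genes 4 rose. Members 4 and 6 changed by 1.18 ± 0.29 and 1.30 ± 0.20, and minichromosome maintenance7 by 0.91 ± 0.28, a call that ended without replicate 22 (0.59), 24, 26 or 29. The other two, minichromosome maintenance1 and 2, had changes of 0.60 ± 0.28 and 0.29 ± 0.20 (adjusted p = 0.145 and 0.319). Retinoblastoma family3, a regulator of entry into S phase, held 233, 286 and 349.6 and then 784, 599 and 768 (1.31 ± 0.18). These calls ended when the mature libraries shared the fit.

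All 5 tested alpha tubulin genes fell, with a median of -1.06, while beta tubulins went both ways, with 3 rises and 2 falls among 6. Alpha tubulin6 fell from 2749.7, 2476 and 3444 normalized counts to 1169, 949.7 and 785 (log2 change -1.58 ± 0.18, adjusted p = 8.09e-05). Of 9 tested expansins, which loosen cell walls, 5 fell and none rose. Beta expansin3 held 550.1, 599 and 1105 and then 34.0, 30.1 and 27.2, a 22.8-fold fall (log2 change -4.51 ± 0.30, adjusted p = 4.31e-06). Alpha expansin1 held 131, 132 and 625 and then 5.20, 21.2 and 5.48, with replicate 25 well above the other DAP 24 libraries (log2 change -4.53 ± 0.66, and -3.78 without it). Among 20 tested aquaporins 6 rose and 4 fell, against 6 and 6 without replicate 27. All 3 tested small basic membrane intrinsic proteins fell, and of 9 plasma membrane intrinsic proteins 4 rose and 1 fell. Ribosomal protein and translation genes rose at 10 of 38 and fell at 3, with a median of 0.20 over all 38. The 60S acidic ribosomal protein P0 went from 5839, 6292 and 7136 to 11611, 13299.7 and 10498 (log2 change 0.88 ± 0.14).

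Some transcription factor families differed in direction, beside 12.0% higher and 15.6% lower over all tested loci. Of 33 tested MADS genes, a family best known for floral and ovule identity, 15 fell and none rose, with a median of -0.89. Zea mays MADS1 held 2361, 1346 and 1663 normalized counts and then 561, 535 and 565 (log2 change -1.65 ± 0.20, adjusted p = 0.000112), and Zea mays MADS18 and another locus, named only MADS1, changed by -2.14 ± 0.40 and -2.01 ± 0.30. With the mature libraries in the fit, 1 of 35 tested fell and none rose. Falls outnumbered rises among MYB genes, 28 to 10 of 126, and bZIP genes, 19 to 7 of 83. MYB-transcription factor 14 fell from 1281, 1467 and 2269 to 225, 218 and 108 (log2 change -3.21 ± 0.28, adjusted p = 1.79e-05), a call that ended in the same fit. NAC genes had 9 rises and 12 falls among 77, near the shares over all tested loci in both directions. NAC-transcription factor 98 went from 126, 189.6 and 239.8 to 21.3, 17.1 and 12.8 (log2 change -3.34 ± 0.32, adjusted p = 2.68e-05). AP2-EREBP genes had 14 rises and 8 falls among 92, but 11 and 12 without replicate 27, with a median of 0.50 that became -0.04. WRKY genes had 9 and 7 among 72, with rises near the share over all tested loci, but 4 and 8 without that library.

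Single regulators were among the leading genes, which the naming rule picked for the size of their change. The gene named knotted1 induced1 (Zm00001d022630) held 449.9, 1051 and 3958 normalized counts and then 9.37, 3.26 and 40.2. Its spread was wide on each day, but the days were apart (log2 change -6.66 ± 1.25, adjusted p = 0.00202; -7.54 without replicate 29). WRKY-transcription factor 53 held 545, 83.6 and 72.2 and then 23.4, 43.9 and 0.457, and its call (-3.68 ± 1.10, adjusted p = 0.026) ended without replicate 22 (-2.75) or replicate 29 (-2.18). bHLH-transcription factor 60 rose from 106, 48.2 and 27.9 to 627, 619 and 766 (log2 change 3.65 ± 0.51, adjusted p = 0.00033). CNR2 and GRMZM2G051921 complete the 12 largest rises, at 3.78 ± 0.80 (4.43 without replicate 22) and 4.20 ± 0.59. Among hormone genes, PIN-formed protein11, of the auxin efflux family, fell from 320.1, 119 and 228 to 14.9, 19.5 and 12.6 (log2 change -3.65 ± 0.41, adjusted p = 7.45e-05), and gibberellin 2-oxidase1, which inactivates gibberellins, fell by 2.45 ± 0.25, though not with the mature libraries in the fit. Auxin genes as a list had 13 rises and 14 falls among 73, and genes of cytokinin, gibberellin and ethylene 9 and 11 among 53.

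Loci without a gene name moved as far. Zm00001d029185 (chromosome 1, 61532025 to 61533237) held 429, 448 and 456 normalized counts and then 5.38, 4.88 and 0.914 (log2 change -6.74 ± 0.49, adjusted p = 5.39e-06), and reached 0 in the mature libraries. Zm00001d028172 changed by -6.56 ± 1.02, from 101, 220.1 and 489 to 0.52, 1.63 and 2.28. In the other direction, Zm00001d040479 (chromosome 3, 46076165 to 46080173) went from 0, 0 and 0.482 to 231, 377 and 640.1, and Zm00001d029388 from 0, 3.21 and 0 to 151, 946 and 157. Both were at or near 0 on DAP 24, so their size rests on the pseudocount.

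The same step in DAN3130 shows where the size or direction of the change differed between the lines. Over all 27207 tested loci, 2810 were called higher and 3800 lower in DAN3130, and the counts here are to be read beside these. Of the 3276 loci called higher in JI63, 1124 were also called higher in DAN3130 and 290 were called lower there. Of the 4256 called lower in JI63, 1086 were also called lower in DAN3130 and 173 were called higher. The difference between the 2 changes passed an adjusted p of 0.05 at 4480 of 27207 loci (16.5%), with the JI63 change the higher at 2154 and the lower at 2326. Several endosperm and starch genes fell further in JI63. Basal endosperm transfer layer9 averaged 6243 ± 166 (SD, n = 3) and then 1936 ± 473 normalized counts in DAN3130. It was thus called lower there too, at -1.72 (limma adjusted p = 0.00207), and the difference was -4.0 (adjusted p = 0.000325). Opaque endosperm2 changed by -0.71 in DAN3130, a difference of -2.73 (adjusted p = 0.00314), and waxy1 by -0.37, a difference of -2.20 (adjusted p = 0.00819). Sucrose phosphate synthase1 averaged 324 ± 34.0 and 317 ± 142 in DAN3130, a change of -0.11 (adjusted p = 0.807; difference -3.40, adjusted p = 0.000357). In the starch list the JI63 change was the lower at 10 of 24 genes and the higher at 4, and in the storage protein list the lower at 3 of 10 and the higher at 1. Zein protein, 15kDa15 did not pass (difference -1.56, adjusted p = 0.0986).

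The replication genes moved in opposite directions. All 6 minichromosome maintenance genes fell in DAN3130, with a median of -1.94 against 1.04 in JI63, and all 6 passed the test of the difference. Minichromosome maintenance5 averaged 809 ± 268 and then 251 ± 72.9 in DAN3130 (difference 3.21, adjusted p = 0.000591). FPGS1 fell in DAN3130, from 681 ± 37.8 to 393 ± 24.2 (difference 2.35, adjusted p = 0.000219), and MS1 rose there, from 14.0 ± 7.20 to 63.5 ± 27.7 (difference -4.13, adjusted p = 0.00163). GCHI-1, by contrast, changed by 1.31 in DAN3130, and the difference of 0.01 did not pass (adjusted p = 0.98). Dehydrin1 and heat shock protein26 rose further in DAN3130. Dehydrin1 averaged 4670.2 ± 1119 and then 118546 ± 30024 there (difference -2.58, adjusted p = 0.00239), and heat shock protein26 changed by 4.56 there against 1.20 ± 0.32 in JI63 (difference -3.36, adjusted p = 0.000877). That call of heat shock protein26 in JI63 ended without replicate 24, 25 or 27. The terpene synthases rose in DAN3130 too, by 6.14 for TPS6, 6.16 for terpene synthase11 and 5.15 for kaurene synthase4 (limma adjusted p = 0.000957, 0.00125 and 0.000236). They did not pass the test of the difference, at 0.43 for TPS6 (adjusted p = 0.864) and 0.25 for terpene synthase11 (adjusted p = 0.927). A difference that does not pass does not show that the changes are equal.

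**Figure D5:**
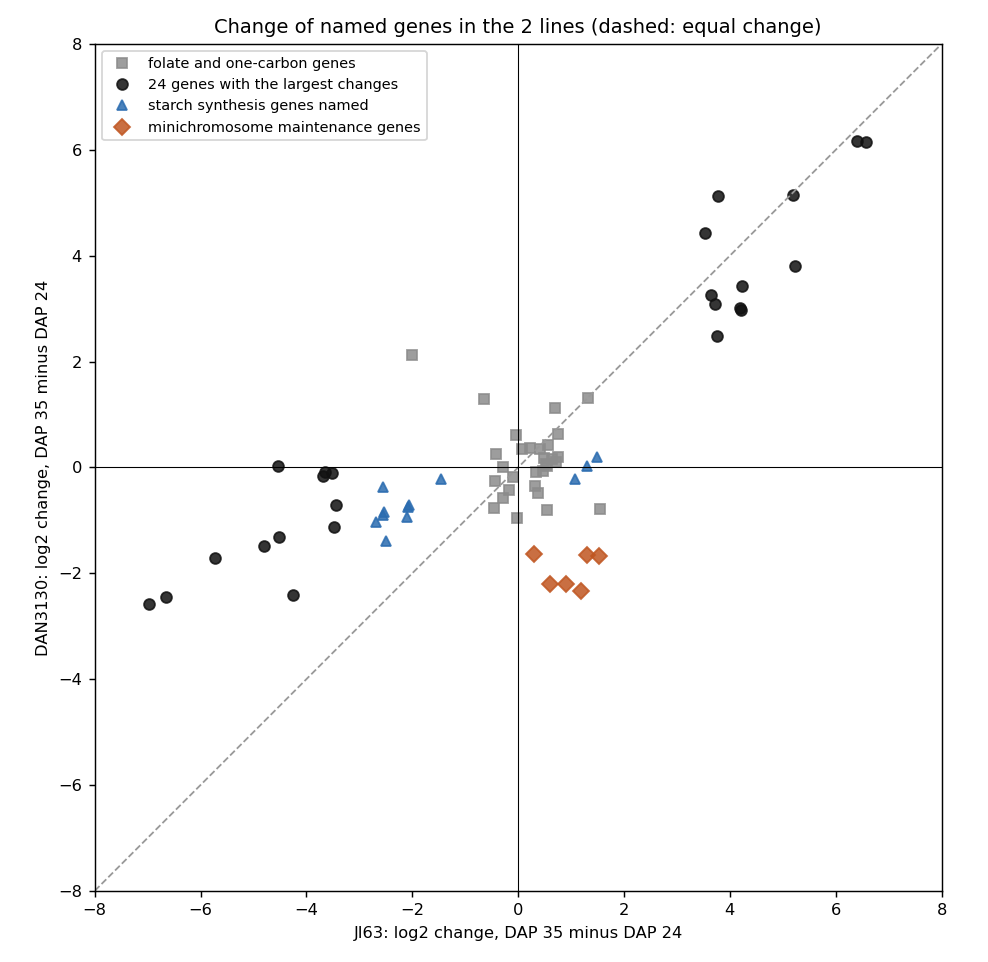
Log2 change from DAP 24 to DAP 35 of named genes in JI63 (horizontal axis) and in DAN3130 (vertical axis), where the dashed line marks equal change. Basal endosperm transfer layer9 (-5.72 and -1.72) and minichromosome maintenance5 (1.53 and -1.67) lie off the line, and GCHI-1 (1.32 and 1.31) lies on it.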

How the data were processed

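Kernel RNA-seq of JI63 was taken from 1 deposited expression table. Per the methods, the authors aligned reads to B73 AGPv4 with HISAT2 2.1.0 without strand, assembled loci with Cufflinks and Cuffcompare 2.2.1, counted with HTSeq 0.11.2 and divided by DESeq2 size factors, so the deposited signal is a normalized count per locus. Without strand, antisense or overlapping genes cannot be separated. The table holds 77704 loci, 40171 of them with a gene, and 26258 intron entries, which were left out. All values were whole multiples of 1 read within 0.1%, so reads were recovered (100% whole).

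The test was limma 3.58.1 in R 4.3.3, empirical Bayes with trend, on log2(signal + 1), over 12 libraries in 4 groups (8 residual degrees of freedom), for loci with a mean above 10. The fold changes are on that scale and understate low genes. Mature libraries were left out of the fit, and 1 alternative added them. Named genes were the 12 largest changes each way among named loci of 1 gene whose mean reached 100, whose adjusted p was below 0.05 and whose days did not overlap, up to 3 each way per list, and the folate genes by identifier. Members, lists and rule were chosen with earlier results of these data known. Further genes quoted as examples, among them shrunken2, brittle endosperm2, globulin2, viviparous1 and most minichromosome maintenance genes, were chosen after their values were seen. Counts over families within a list, such as alpha tubulins, expansins, hexokinases and phosphoenolpyruvate carboxylases, were not planned as lists. Alternatives were other pseudocounts, filters, scalings and sample sets, edgeR 4.0.16 and DESeq2 1.42.0 on the recovered counts, reads thinned to 15496827, and leaving out each library. Scripts were tested on simulated data. No promoter or protein sequence was used here.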

Additional observations from a re-analysis of the deposited data

Results flagged for a closer look

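The change from DAP 24 to DAP 35 in JI63 differed from that in DAN3130, by the test of the difference itself (limma, Benjamini-Hochberg over all loci), at 102 of the 249 tested named genes. Over all tested loci the share was 16.5%. Most named genes were picked for a large JI63 change, which is also part of the difference. The number that passed among them is therefore raised by that choice and is not a result about named genes. Given here are the 19 that passed among the 59 genes made up of the leading changes, the folate and C1 genes and the glutamate genes that the study singled out. Values are the JI63 change minus the DAN3130 change on the log2 scale. Among genes of the endosperm, these were -4.0 for basal endosperm transfer layer9, -4.38 for embryo surrounding region2, -1.83 for embryo surrounding region6, -3.33 for 22kD alpha zein5 and -2.73 for opaque endosperm2. For sucrose, nitrogen and wall genes they were -3.40 for sucrose phosphate synthase1, -1.02 for asparagine synthetase 2, -4.56 for alpha expansin1 and -3.20 for beta expansin3. PIN-formed protein11 differed by -3.56 and BURP domain-containing protein-RD22-like9 by -2.34. Among folate genes the values were 2.35 for FPGS1, 0.86 for ADCL1, -1.93 for DHNA2 and 0.67 for DRTS3. In C1 metabolism they were -4.13 for MS1, -0.67 for SHMT7-2, 1.35 for GCSP and -0.66 for SHMT-GLY1. Of these, ADCL1, DHNA2, DRTS3 and SHMT-GLY1 were not called in JI63 alone.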

How the results depend on the processing

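The 7532 called loci became 2653, and the 5379 DEGs 3584, when all 18 libraries shared the fit. The number of loci with a line difference, 4480, then became 690. The residual SD of log2 values was 1.13 in mature JI63 and 1.79 in mature DAN3130, against 0.58 to 0.86 in the 4 immature groups, and 100 of the 224 called named loci lost their call in that fit. The number of DEGs was 9176 with no filter, 8387 with a mean above 1 and 2964 with a mean above 100. The other settings stayed within 1.5 times, with 7273 called loci in edgeR, 8643 in DESeq2 and 7228 after thinning to equal depth. Leaving out each library in turn gave 5606 to 7281 called loci, 4864 to 5264 DEGs and 3102 to 5960 line differences. Of 249 named loci tested, 119 were called under each of up to 20 alternative settings and 34 lost the call without at least 1 library. No paired analysis was possible because the replicate codes of DAP 24 and DAP 35 are not shared. Replicate 24, with 15496827 reads, limits the lowest counts.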

Other observations

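Genes of jasmonate signalling and lipoxygenases had 5 rises and 4 falls among 41 tested in JI63, with a median log2 change of 0.16, but 3 rises, 8 falls and a median of -0.34 without replicate 27. Lipoxygenase11, which oxidizes fatty acids, held 794, 662 and 988 normalized counts on DAP 24 and 199, 402 and 131 on DAP 35 (log2 change -1.87 ± 0.35, adjusted p = 0.00202 in limma), a call that ended when the mature libraries shared the fit. Phenylpropanoid and flavonoid genes had 4 rises and 1 fall among 30 tested, against 2 and 5 without replicate 27. Phenylalanine ammonia lyase3, at the entry of that pathway, held 1030.2, 693 and 697 and then 1318, 2201 and 1487 (log2 change 1.04 ± 0.22, adjusted p = 0.00403), again called only without the mature libraries. Genes of lipid and oil bodies had 2 rises and 1 fall among 13 tested, with a median of -0.05. The abundant phospholipid transfer protein homolog1, a lipid carrier, held 73712, 80203 and 93747 and then 219069.9, 620386 and 203197 (log2 change 1.88 ± 0.37, adjusted p = 0.0027), with replicate 27 the highest. Homeobox genes had 9 rises and 11 falls among 80 tested, and bHLH genes 10 and 15 among 82. Over all tested loci 12.0% rose and 15.6% fell, so the counts of these families are near the general share. The rises among jasmonate, phenylpropanoid and lipid genes are near it too.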
